A study of Rattus norvegicus with 16 samples.

Results

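The genes described here move ions and bicarbonate across cell membranes or supply bicarbonate and protons for that transport. They were chosen by symbol: the bicarbonate transporters *Slc4a*, the anion exchangers *Slc26a*, the sodium-proton exchangers *Slc9a*, the cation-chloride cotransporters *Slc12a*, the sodium-calcium exchangers *Slc8a*, the α and β subunits of the Na,K-ATPase (*Atp1a*, *Atp1b*) and the carbonic anhydrases (*Car*). The rule found 50 of the 14217 genes on the array, read by 64 of 31042 probe sets. Of the 50 genes, 29 had a signal above the 40th percentile of its array on at least 4 arrays, and the other 21 were dim. Some members carry a family name without being transporters or enzymes. *Slc4a1ap* encodes kanadaptin, an adaptor-type protein, and *Car8*, *Car10* and *Car11* encode carbonic anhydrase-related proteins without the enzyme's activity.

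The cornea stays transparent because its stroma is kept thin and relatively dehydrated. The endothelium on its inner face does most of this work, with Na,K-ATPase setting the sodium gradient, Slc4a4 bringing in sodium with bicarbonate, carbonic anhydrases interconverting carbon dioxide and bicarbonate, and lactate leaving the stroma with protons. In humans, loss of SLC4A11 causes a congenital endothelial dystrophy with corneal swelling. The epithelium on the outer face adds chloride secretion, fed by the cotransporter Slc12a2, and sodium uptake.

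RNA was measured in corneas of male Wistar rats, an albino strain, aged 12 to 16 weeks, with 1 Affymetrix array per cornea and 4 corneas in each of 4 groups. Naïve corneas had neither sutures nor drops. In the other 3 groups, 2 sutures in the temporal part of the right cornea, at a distance of 1.5 mm from its edge, served to provoke inflammation, so all treated corneas share the wound and the sutures, and no sutured cornea without drops was measured here. Treated eyes received 4 drops per day for 2 days, 8 in all, of goat IgG (called an anti-IgG antibody in some labels), of a goat antibody against rat Vegf, or of dexamethasone, a glucocorticoid, at 1 mg/ml. The antibodies were given at 20 mg/ml per the labels and at 20 µg/ml per the study's methods. The harvested tissue was the cornea without the scleral rim per the labels, and the area between sutures and limbus per the methods, so layers of the cornea were measured together. In such tissue, fewer cells of a type and less RNA per cell cannot be told apart. Nothing in the labels ties arrays of different groups to each other, and the p-values measure the spread between corneas.

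Values are log2 signals, so a difference of 1 is a doubling. To be called, a gene needed an adjusted p under 0.05 (limma, Benjamini-Hochberg over all probe sets), and in comparisons with naïve corneas also a change of 1.5-fold or more. The brightest probe set stands for a gene, and signals of different genes are not compared. Array medians lay between 6.55 and 6.62. The poly-A controls, bacterial RNAs added during labelling, averaged 7.08 ± 0.27 with IgG and 6.88 ± 0.12 with anti-*Vegf*, but 5.17 ± 0.16 with dexamethasone and 5.10 ± 0.11 in naïve corneas (SD, n = 4 each). Neither antibody group overlapped either of the other groups in these controls (exact permutation p = 0.0286 in each of the 4 comparisons, two-sided, the smallest that 4 against 4 arrays allow), while dexamethasone and naïve corneas did overlap (exact p = 0.543). Any gene that separates the antibody groups from naïve and dexamethasone treated corneas therefore follows the same split as the labelling controls, and the treatment and this split cannot be told apart. The log2 differences between the 5′ and 3′ control probe sets of *Gapdh* and beta-actin, which reflect RNA integrity and labelling, were also higher with IgG than in naïve corneas, by 0.23 and 0.58, without overlap (exact permutation p = 0.0286 for both), so they move with the IgG results below and their part was not tested. The defining epithelial keratin *Krt12* was bright in all groups, and all 9 leukocyte markers rose in each treated group.

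Relative to naïve corneas, few of the 50 genes passed the test. With IgG, 2 of 50 rose (4%, against 6.32% of all genes) and 4 fell (8%, against 5.02%). With anti-*Vegf*, 2 rose (4%, against 6.82%) and 5 fell (10%, against 5.94%). With dexamethasone, 1 rose (2%, against 8.19%) and 3 fell (6%, against 4.45%). These shares are near the background, and the medians of the 50 genes were -0.01, -0.06 and -0.06, beside -0.01, -0.01 and 0.00 for all genes. Without anti-*Vegf* replicate 3, the anti-*Vegf* count fell from 7 to 4 in all. Centring on reference genes moved the split of higher to lower calls from 2 and 4 to 1 and 9 with IgG, from 2 and 5 to 1 and 14 with anti-*Vegf*, and from 1 and 3 to 1 and 7 with dexamethasone. That centring also moved the median of all probe sets by -0.27, -0.35 and -0.30. The share of all genes called under it was not counted, so nothing about these 50 genes is read from that split. *Slc4a7*, *Slc4a11* and *Slc12a5* were called in all 3 treated groups.

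**Figure D1:**
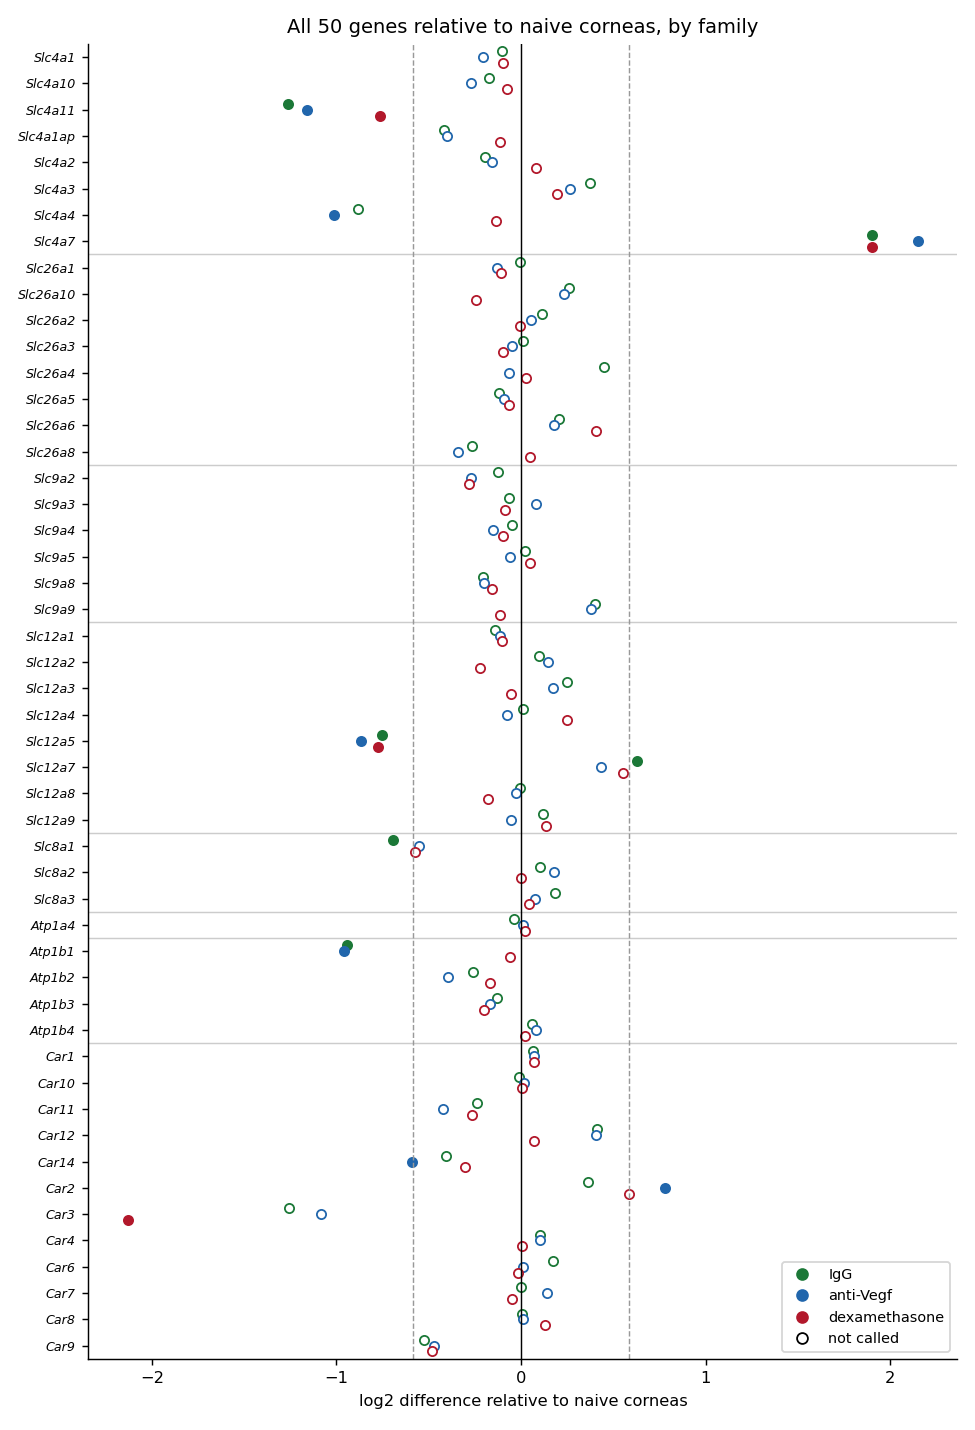
Log2 difference of each of the 50 genes in IgG (green), anti-*Vegf* (blue) and dexamethasone (red) treated corneas relative to naïve corneas, grouped by family. Filled points were called and open points were not, and the dashed lines mark a 1.5-fold change. *Slc4a7* stands alone on the right, and *Slc4a11*, *Atp1b1*, *Slc4a4* and *Car3* lie farthest to the left.

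Among the bicarbonate transporters, *Slc4a7* (NBCn1), which carries sodium and bicarbonate into cells without net charge, showed the largest rise of the 50 genes in each treated group. Its log2 signals in naïve corneas were 7.75, 7.27, 6.68 and 6.74. With IgG they were 8.84, 8.75, 9.07 and 9.37, with anti-*Vegf* 8.99, 9.41, 9.71 and 8.93, and with dexamethasone 9.31, 9.13, 8.88 and 8.70. Every treated array lay above every naïve array, and the 3 treated groups overlapped each other. The rise was 3.73-fold with IgG (log2 difference 1.90, standard error 0.23, adjusted p = 2.61e-05), 4.44-fold with anti-*Vegf* (2.15, adjusted p = 7.98e-06) and 3.73-fold with dexamethasone (1.90, adjusted p = 2.73e-05). A second probe set of *Slc4a7* gave log2 differences of 2.31, 2.47 and 1.82 in the same order. On that probe set dexamethasone was below anti-*Vegf* by 1.56-fold (adjusted p = 0.036), with overlapping arrays, whereas the brighter probe set gave a difference of -0.25 (95% confidence interval -0.74 to 0.24). The summed linear signal of the 9 leukocyte markers rose alongside, from 652 to 775 in naïve arrays to 2203 to 5001 in treated arrays, and its part in the rise of *Slc4a7* was not tested.

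*Slc4a11*, a transporter of the corneal endothelium, fell in all 3 treated groups. The naïve arrays gave 11.33, 11.36, 11.08 and 10.71. The IgG arrays gave 9.31, 9.86, 10.32 and 9.93, the anti-*Vegf* arrays 9.85, 10.24, 9.85 and 9.90, and the dexamethasone arrays 10.20, 10.41, 10.22 and 10.58. No treated array reached the lowest naïve array, and dexamethasone overlapped both antibody groups only at its lower end. *Slc4a11* fell 2.40-fold with IgG (log2 difference -1.26, standard error 0.18, adjusted p = 0.000132), 2.24-fold with anti-*Vegf* (-1.16, adjusted p = 0.000238) and 1.70-fold with dexamethasone (-0.76, adjusted p = 0.00652). Dexamethasone exceeded IgG by 0.50 (95% confidence interval 0.11 to 0.89, adjusted p = 0.101) and anti-*Vegf* by 0.40 (0.01 to 0.79, adjusted p = 0.222), and neither difference passed the test.

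*Slc4a4* (NBCe1), the electrogenic sodium-bicarbonate cotransporter of the endothelial pump, had more spread. Naïve corneas gave 9.98, 9.81, 9.14 and 9.11. IgG treated corneas gave 7.67, 9.07, 8.87 and 8.89, anti-*Vegf* treated corneas 8.86, 8.77, 8.21 and 8.14, and dexamethasone treated corneas 9.69, 8.94, 10.02 and 8.85. Both antibody groups lay below all naïve arrays, and the dexamethasone arrays spanned the naïve range. Only the fall with anti-*Vegf* passed the test, by 2.02-fold (log2 difference -1.02, standard error 0.32, adjusted p = 0.0284). The differences were -0.88 with IgG (adjusted p = 0.0535) and -0.14 with dexamethasone (adjusted p = 0.827). A second probe set gave 0.02, -0.41 and -0.08 and passed in no comparison, and the call with anti-*Vegf* was lost with the mean of both probe sets and without anti-*Vegf* replicate 3 or 4 or naïve replicate 1 or 2. The other members of this family, among them the anion exchangers *Slc4a2* and *Slc4a3*, were not called relative to naïve corneas.

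**Figure D2:**
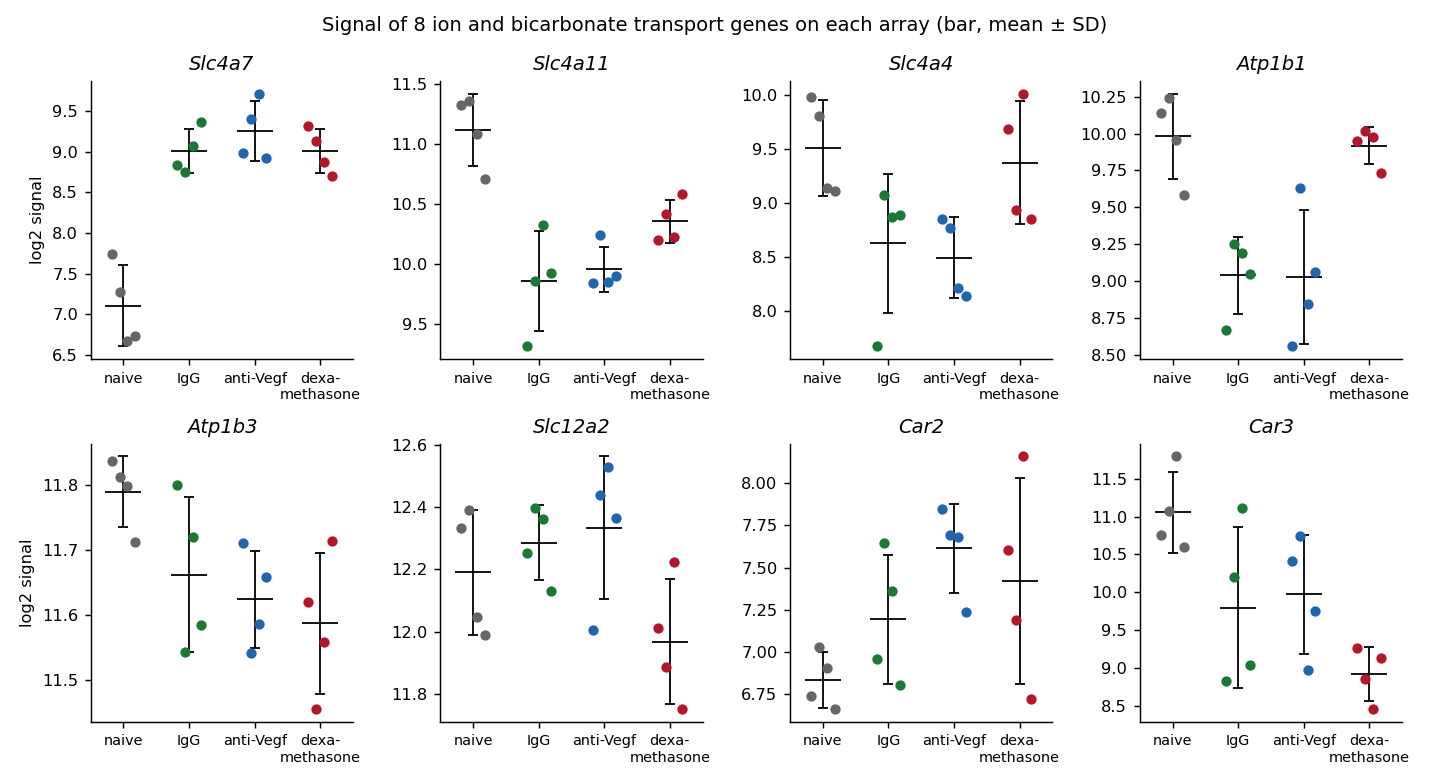
Log2 signal (y axis) of 8 genes on each of the 16 arrays, by group (x axis), with points for arrays and bars for mean ± SD of 4 arrays. *Slc4a7* separates all treated from naïve corneas, *Slc4a11* does so downwards, and the dexamethasone arrays of *Atp1b1* (9.73 to 10.01) lie within the naïve range and above both antibody groups.

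By gene symbol alone, the Na,K-ATPase families held 1 α and 4 β members. *Atp1a4*, an α subunit of sperm, was dim on all 16 arrays, at 3.00 to 3.41. *Atp1b1*, the β subunit that brings the pump to the plasma membrane, gave 10.14, 10.24, 9.96 and 9.58 in naïve corneas. It gave 8.67, 9.25, 9.19 and 9.05 with IgG, 8.56, 9.63, 8.84 and 9.06 with anti-*Vegf*, and 9.95, 10.01, 9.98 and 9.73 with dexamethasone. The IgG arrays lay below all naïve and dexamethasone arrays, and 1 anti-*Vegf* array (replicate 2) reached the lowest naïve array. *Atp1b1* fell 1.92-fold with IgG (log2 difference -0.94, standard error 0.20, adjusted p = 0.00205) and 1.94-fold with anti-*Vegf* (-0.96, adjusted p = 0.00174). With dexamethasone the difference from naïve corneas was -0.06 (95% confidence interval -0.48 to 0.35).

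The direct comparison of treatments gave the same separation for *Atp1b1*: dexamethasone exceeded IgG 1.84-fold (log2 difference 0.88, adjusted p = 0.0101) and anti-*Vegf* 1.86-fold (0.90, adjusted p = 0.0129), with no overlap between the arrays. A second probe set was called in the same 4 comparisons, with -0.73, -0.83, 0.78 and 0.88. The study lists *Atp1b1* among genes higher with dexamethasone than with IgG from these same arrays, so the value here is not independent of that list. *Atp1b1* moved with the split of the poly-A controls given above, and treatment and that split cannot be told apart. *Atp1b3*, another β subunit, lay between 11.45 and 11.84 on all arrays, with differences of -0.13, -0.17 and -0.20 from naïve corneas and no call. *Atp1b2* and *Atp1b4* were not called either.

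Markers of the corneal endothelium and of keratocytes also differed between the groups. Of the 6 endothelial markers measured, 3 fell with IgG and 1 rose, 4 fell with anti-*Vegf* and 1 rose, and 1 fell with dexamethasone. *Col8a1* and *Col8a2*, collagens of Descemet's membrane, differed from naïve corneas by -1.44 and -1.21 with IgG, by -1.43 and -1.42 with anti-*Vegf*, and by -1.09 and -0.53 with dexamethasone, the last of which was not called. *Cdh2*, the cadherin of endothelial junctions, fell by 1.62 with IgG and 1.56 with anti-*Vegf* on the log2 scale and differed by -0.46, not called, with dexamethasone. Between treatments, *Cdh2* was higher with dexamethasone than with IgG (1.16, adjusted p = 0.024) and anti-*Vegf* (1.09, adjusted p = 0.04), and *Col8a2* (0.88) and *Tfap2b* (0.68) were higher than with anti-*Vegf*, while *Foxc1* was lower with dexamethasone than with IgG (-1.08, adjusted p = 0.0222). *Foxc1* and *Alcam* went the other way relative to naïve corneas: *Foxc1* rose with IgG by 0.86 and *Alcam* rose with anti-*Vegf* by 0.69. The summed linear signal of the 6 markers ranged from 7552 to 9993 in naïve arrays, from 3775 to 6500 with IgG, from 4442 to 6657 with anti-*Vegf* and from 6302 to 7221 with dexamethasone. Keratocyte markers also moved: of 6 measured, 2 fell with IgG, 4 with anti-*Vegf* and 2 with dexamethasone, and 2 were higher with dexamethasone than with anti-*Vegf*. Their summed linear signal ranged from 37333 to 50817 in naïve arrays, from 32041 to 38508 with IgG, from 28083 to 37258 with anti-*Vegf* and from 36888 to 38832 with dexamethasone. The part of either set of markers in the falls of the transport genes was not tested.

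**Figure D3:**
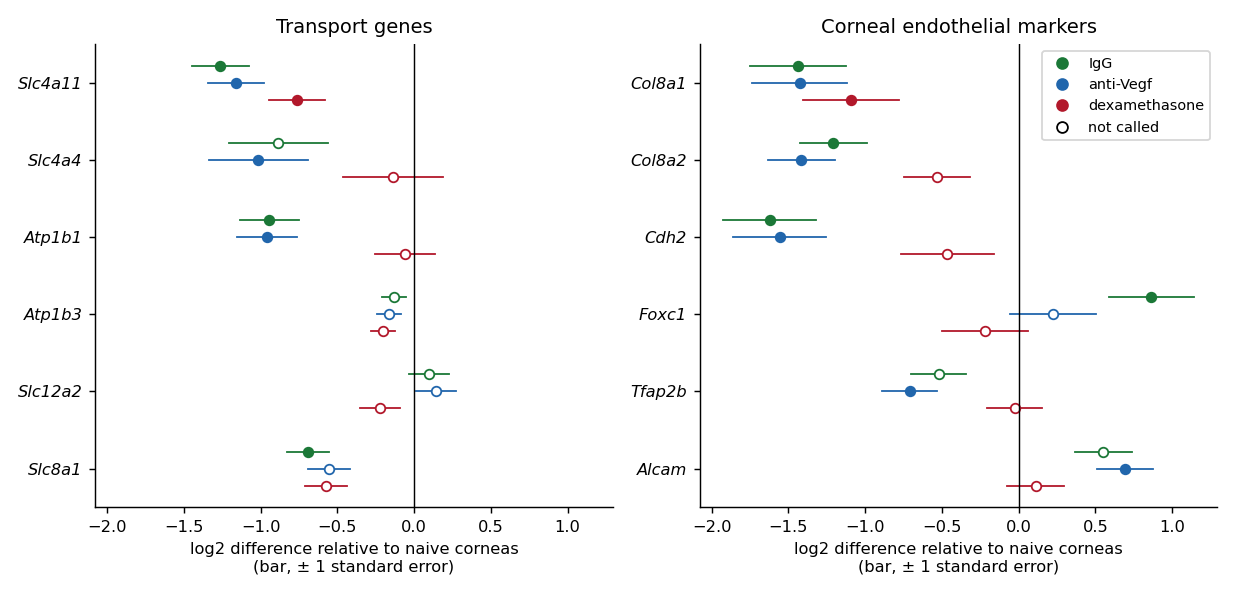
Log2 difference from naïve corneas (x axis, with a bar of 1 standard error to each side) for 6 transport genes on the left and the 6 measured endothelial markers on the right, by treatment. Filled points were called. *Slc4a11* and *Col8a1* were called in all 3 groups, and no other gene shown was called with dexamethasone.

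The cation-chloride cotransporters were split. *Slc12a2* (NKCC1), which loads chloride into secreting cells, had signals from 11.75 to 12.53 on all arrays and was not called. Its differences from naïve corneas were 0.10, 0.14 and -0.22, and dexamethasone lay below IgG by 0.32 (95% confidence interval -0.59 to -0.04 for the difference, adjusted p = 0.136). *Slc12a5* (KCC2), a potassium-chloride cotransporter best known from neurons, gave 8.16, 8.41, 7.84 and 8.03 in naïve corneas. It gave 7.36, 7.66, 7.32 and 7.10 with IgG, 7.17, 7.53, 7.20 and 7.08 with anti-*Vegf*, and 7.12, 7.60, 7.59 and 7.04 with dexamethasone. All treated arrays lay below all naïve arrays, and the treated groups overlapped. *Slc12a5* fell 1.68-fold, 1.83-fold and 1.71-fold (log2 differences -0.75, -0.87 and -0.78, standard error 0.16, adjusted p = 0.00233, 0.000756 and 0.00203). None of the 6 measured nerve and Schwann cell markers was called in any comparison. *Slc12a7* (KCC4), another potassium-chloride cotransporter, rose with IgG, from 7.24, 6.91, 7.34 and 6.93 in naïve corneas to 7.82, 7.58, 7.71 and 7.83. The 1.55-fold rise (adjusted p = 0.00163) separated these groups without overlap, but the call was lost without naïve replicate 2 or 4, with the mean of its probe sets and when centred on reference genes. The differences of 0.43 with anti-*Vegf* and 0.55 with dexamethasone had adjusted p = 0.0179 and 0.00444 but did not reach 1.5-fold, and a second, dim probe set of *Slc12a7* was not called.

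*Slc8a1* (NCX1), which exchanges sodium for calcium, fell with IgG. Naïve arrays gave 7.33, 7.30, 6.97 and 6.72, and IgG arrays gave 6.43, 6.29, 6.58 and 6.24. The groups did not overlap, and the fall was 1.62-fold (log2 difference -0.69, standard error 0.14, adjusted p = 0.0015). The differences with anti-*Vegf* (-0.55, adjusted p = 0.00681) and dexamethasone (-0.57, adjusted p = 0.00619) were just short of 1.5-fold. A second probe set, dim on all arrays, gave -0.10, -0.02 and 0.01. *Slc8a2* was not called in any comparison, with differences from naïve corneas of 0.10, 0.18 and 0.00.

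Among the carbonic anhydrases, *Car3* fell with dexamethasone, the largest fall of any of the 50 genes in any treated group, and *Car2* rose with anti-*Vegf*. *Car3*, a cytosolic form of low activity that is abundant in muscle and fat, gave 10.75, 11.07, 11.79 and 10.60 in naïve corneas. It gave 8.83, 10.20, 11.11 and 9.04 with IgG, 10.41, 10.74, 8.97 and 9.76 with anti-*Vegf*, and 9.27, 8.85, 8.46 and 9.13 with dexamethasone. The dexamethasone arrays lay below all naïve arrays, whereas the antibody groups were spread widely and overlapped both. *Car3* fell 4.38-fold with dexamethasone (log2 difference -2.13, standard error 0.45, adjusted p = 0.00272), and a second probe set fell by 1.73 on the log2 scale. The differences with IgG (-1.26, adjusted p = 0.0508) and anti-*Vegf* (-1.08, adjusted p = 0.0927) were not called, nor was dexamethasone against IgG (-0.87, 95% confidence interval -1.83 to 0.09) or against anti-*Vegf* (-1.05, -2.01 to -0.08, adjusted p = 0.188). Of 9 measured skeletal muscle markers, *Myh2* fell in all 3 groups, by 1.13, 1.13 and 0.89, the defining markers *Acta1* and *Myh4* were dim throughout, and the 9 markers together had a summed linear signal of 1861 to 2528 in naïve and 2430 to 3232 in dexamethasone arrays. Of 6 measured fat cell markers, *Adipoq*, *Plin1* and *Lep* were dim, *Cfd* rose in all 3 groups, and *Lpl* fell with IgG and anti-*Vegf* by 1.28 and 1.19, and the 6 together summed to 604 to 959 in naïve and 535 to 697 in dexamethasone arrays. The part of such cells in the *Car3* values was not tested.

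*Car2*, the fast cytosolic form found in the corneal endothelium, gave 6.74, 7.03, 6.90 and 6.66 in naïve corneas and 7.85, 7.69, 7.68 and 7.24 with anti-*Vegf*. These groups did not overlap, and the rise was 1.72-fold (log2 difference 0.78, standard error 0.25, adjusted p = 0.0271). With IgG (6.96, 7.65, 7.36 and 6.80) and dexamethasone (7.61, 7.19, 8.16 and 6.72) the arrays overlapped the naïve range, and the differences of 0.36 and 0.59 were not called. The difference between anti-*Vegf* and IgG, 0.42 (95% confidence interval -0.10 to 0.94), did not pass the test. The anti-*Vegf* call was lost without naïve replicate 1 or 4 or anti-*Vegf* replicate 1, 2 or 3. It was also lost when centred on reference genes (0.43, adjusted p = 0.153, limma), although a second probe set gave the same rise of 0.78. *Car14*, a membrane-bound form, fell with anti-*Vegf*, from 6.67, 6.73, 7.30 and 6.73 to 6.28, 6.28, 6.09 and 6.41. This was 1.50-fold (adjusted p = 0.00222), and its other probe set was called in all 3 groups, with -0.89, -1.28 and -0.80. The representative call was lost without naïve replicate 3, the highest array, or anti-*Vegf* replicate 3. It was also lost with array weights (-0.57) and with cyclic loess (-0.55), where the fall was short of 1.5-fold. *Car4*, the form anchored to the outer membrane, was dim and not called, with differences of 0.11, 0.10 and 0.00. Its other probe set, also dim, gave larger differences of 0.22, 0.42 and 0.40. With anti-*Vegf* and dexamethasone these had adjusted p = 0.0289 and 0.0456 (limma) but did not reach 1.5-fold.

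Between treatments, dexamethasone was compared with each antibody group to ask what it changed in sutured corneas. Against IgG, 3 of 50 genes were higher (6%, against 7.41% of all genes) and 3 lower (6%, against 3.16%). Against anti-*Vegf*, 2 were higher (4%, against 4.63%) and 3 lower (6%, against 2.5%). The medians of the 50 genes were -0.01 and 0.00, beside 0.02 and 0.02 for all genes, and these comparisons share the dexamethasone arrays. The counts fell from 6 to 3 without IgG replicate 2, dexamethasone replicate 2 or dexamethasone replicate 3, and from 5 to 3 without anti-*Vegf* replicate 2 or dexamethasone replicate 2 and to 2 without anti-*Vegf* replicate 3. Apart from *Atp1b1*, every called difference was under 1.5-fold.

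*Slc26a8*, an anion transporter known from sperm, was higher with dexamethasone, at 6.08, 6.30, 6.24 and 6.41, than with IgG, at 6.07, 5.98, 5.80 and 5.94, or anti-*Vegf*, at 6.10, 5.68, 5.85 and 5.84. The dexamethasone arrays lay just above all IgG arrays and overlapped 1 anti-*Vegf* array, and naïve corneas (6.14 to 6.26) were as high as dexamethasone. The differences were 0.31 (1.24-fold, adjusted p = 0.0469) and 0.39 (1.31-fold, adjusted p = 0.0219). These calls were lost under 17 and 7 of 24 alternatives, the second among them without anti-*Vegf* replicate 2, 3 or 4 or dexamethasone replicate 2 or 4. *Slc4a1ap* was higher than with IgG by 0.30 (1.24-fold, adjusted p = 0.0406), at 7.86, 7.72, 7.83 and 7.65 against 7.48, 7.34, 7.45 and 7.57, without overlap. That call was lost under 11 of 24 alternatives, and the difference from anti-*Vegf* was 0.29 (adjusted p = 0.0648).

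*Slc9a9*, *Slc26a10* and *Car12* were lower with dexamethasone than with either antibody. *Slc9a9* (NHE9), a sodium-proton exchanger of endosomes, gave 5.44, 5.06, 5.26 and 5.19 with dexamethasone, 5.57, 5.90, 5.78 and 5.76 with IgG, and 5.67, 5.72, 5.89 and 5.64 with anti-*Vegf*. The dexamethasone arrays lay below both antibody groups and overlapped the naïve range of 5.07 to 5.53. The differences were -0.52 (1.43-fold lower, adjusted p = 0.00832) and -0.49 (1.41-fold lower, adjusted p = 0.0151), but a second probe set gave -0.32 and 0.08 and was not called. *Slc26a10*, a member of the anion exchanger family, gave 4.38, 4.27, 4.08 and 4.07 with dexamethasone against 4.64 to 4.77 with IgG and 4.55 to 4.79 with anti-*Vegf*. It was 1.42-fold and 1.39-fold lower, without overlap (adjusted p = 0.00588 and 0.012). Both genes were dim on all 16 arrays, so these differences lie near the array's background. *Car12*, a membrane-bound carbonic anhydrase of secreting epithelia, gave 5.50, 5.62, 5.58 and 5.88 with dexamethasone against 5.94 to 6.04 with IgG and 5.82 to 6.09 with anti-*Vegf*. It was 1.27-fold and 1.26-fold lower (adjusted p = 0.0271 and 0.0386), with overlap in the second comparison. These calls were lost under 8 and 9 of 24 alternatives.

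**Figure D4:**
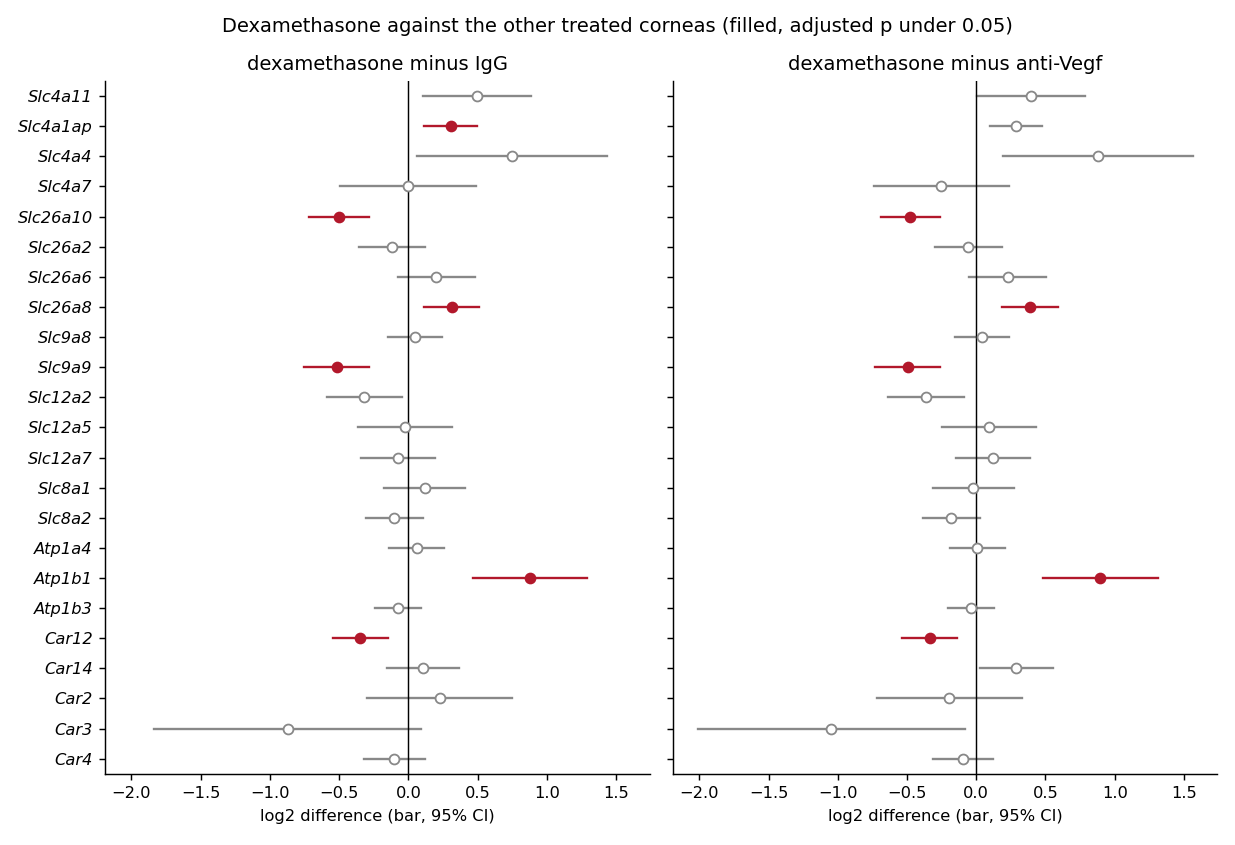
Log2 difference (x axis) of dexamethasone minus IgG on the left and minus anti-*Vegf* on the right for the 23 named genes, with 95% confidence intervals. Filled red points passed an adjusted p under 0.05, and *Atp1b1*, at 0.88 and 0.90, lies farthest from 0 among them.

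*Slc26a8*, *Slc4a1ap*, *Slc9a9* and *Car12* overlapped between dexamethasone treated and naïve corneas and lay apart from naïve corneas in both antibody groups, the split that the poly-A controls showed. The ratio of the 5′ to the 3′ *Gapdh* control probe sets also differed, at -0.39 ± 0.07 in the dexamethasone group, -0.08 ± 0.05 in the IgG group, -0.11 ± 0.04 in the anti-*Vegf* group and -0.30 ± 0.15 in naïve corneas (log2, SD, n = 4 each). Dexamethasone did not overlap either antibody group (exact permutation p = 0.0286 for both). Treatment and these labelling differences cannot be told apart. Lens crystallins and other lens markers were also higher with dexamethasone, 6 of 10 against each antibody group, with a summed linear signal of 1509 to 10924 against 519 to 611 with IgG and 522 to 930 with anti-*Vegf*. The part of lens RNA in the differences of these transport genes was not tested.

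Between anti-*Vegf* and IgG, no gene was called in either direction (0% of the 50 and 0% of all 14217 genes, limma). The arrays did not overlap, though they nearly touched, for 1 of the 50, *Slc12a9* (7.235 to 7.539 with IgG, 7.108 to 7.234 with anti-*Vegf*, adjusted p = 0.897), named after its values were seen. The share of all genes without overlap was not counted, so that count has no background and nothing is read from it. At an unadjusted p under 0.05, 1 of the 50 genes and 942 of all genes (6.63%) differed. The differences of the 50 genes ranged from -0.52 to 0.42, and for the main genes the intervals were wide: 0.10 for *Slc4a11* (95% confidence interval -0.29 to 0.49), -0.02 for *Atp1b1* (-0.43 to 0.40) and 0.25 for *Slc4a7* (-0.24 to 0.74). How many of all 14217 genes were called in no comparison was not counted, so the next count has no background. Of the 50 genes, 35 were called in none of the 6 comparisons, with differences from naïve corneas of -0.53 to 0.45 with IgG, -0.47 to 0.27 with anti-*Vegf* and -0.48 to 0.40 with dexamethasone. Among these were the named genes *Slc26a2*, a sulfate transporter, *Slc26a6*, an exchanger of chloride for bicarbonate, and *Slc9a8*, an exchanger of the Golgi. *Slc26a2* was dim on all arrays, and *Slc9a8* differed from naïve corneas by -0.21, -0.20 and -0.16. *Slc26a6* differed by 0.40 with dexamethasone (adjusted p = 0.0347), short of 1.5-fold.

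Promoters of 40 of the 50 genes were at hand from RefSeq (build GRCr8), each with 250 bases before and 50 after the start site. The motif searched, on both strands, was the glucocorticoid response element, read as AGAACA, 3 bases of any kind and TGTTCT, with up to 2 mismatches. It was in 0 of the 42 promoters of these genes and in 627 of 33469 promoters overall (1.87%). An exact copy of a single arm, AGAACA or TGTTCT, was in 5 of 42 (11.9%) and in 6923 of all (20.7%). The arms were in promoters of *Atp1a4*, *Slc12a1* and *Slc26a3*, dim genes called in no comparison, and of *Slc26a8* and *Slc4a1ap*. Of the genes called higher with dexamethasone than with IgG, *Slc26a8* and *Slc4a1ap* each had 1 arm, while *Atp1b1*, the third such gene, was not searched here. The promoters of the first pair are shown, 5′ to 3′ on the strand of the gene, with the arm in capitals. *Slc26a8* lies at chr20:6751135-6751434 on the minus strand, with the arm starting at position -125 from the start site, and *Slc4a1ap* at chr6:30653544-30653843 on the minus strand, with the arm at -225.
*Slc26a8*: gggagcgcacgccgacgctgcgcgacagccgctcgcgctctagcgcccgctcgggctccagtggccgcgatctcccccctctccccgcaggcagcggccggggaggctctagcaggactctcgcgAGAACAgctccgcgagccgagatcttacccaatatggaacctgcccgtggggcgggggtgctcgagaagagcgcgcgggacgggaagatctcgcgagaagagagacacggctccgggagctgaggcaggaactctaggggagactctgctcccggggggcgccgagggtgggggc
*Slc4a1ap*: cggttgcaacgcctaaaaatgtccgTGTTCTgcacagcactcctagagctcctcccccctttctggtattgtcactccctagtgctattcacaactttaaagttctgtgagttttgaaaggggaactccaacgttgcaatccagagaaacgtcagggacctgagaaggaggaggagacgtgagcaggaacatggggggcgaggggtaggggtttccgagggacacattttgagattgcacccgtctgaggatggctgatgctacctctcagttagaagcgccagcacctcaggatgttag
The promoters of *Car12*, *Slc26a10* and *Slc9a9*, which were lower with dexamethasone, held neither arm in these windows. Such a match describes letters in the sequence and not a bound site.

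Other genes of the same work were read from 5 lists written from general knowledge. The background for each list is that 6.32%, 6.82% and 8.19% of all genes rose with IgG, anti-*Vegf* and dexamethasone, and 5.02%, 5.94% and 4.45% fell. In lactate transport, 2 of 4 measured genes rose and 1 fell in every treated group. *Slc16a1* and *Slc16a3*, carriers that move lactate with protons, rose by 1.45 and 1.43 with IgG, 1.53 and 1.46 with anti-*Vegf*, and 1.83 and 1.60 with dexamethasone (log2 differences). *Slc16a7*, a carrier of high affinity, fell by 1.09, 0.90 and 1.32, and *Bsg*, a chaperone of *Slc16a1* and *Slc16a3*, was not called. The list medians were 0.75, 0.79 and 0.80, against medians of all genes near 0.

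Of 20 measured channels, 3 rose with IgG and 3 with anti-*Vegf*, and with dexamethasone 6 rose and 1 fell. Against IgG, 2 were higher with dexamethasone and 1 lower (7.41% and 3.16% of all genes). Against anti-*Vegf*, 1 was higher and 1 lower (4.63% and 2.5% of all genes). Only some of these channels are named below. *Scnn1a*, the α subunit of the epithelial sodium channel, rose by 1.13, 1.07 and 1.34. *Scnn1b*, its β subunit, rose with dexamethasone by 0.87 and was higher than with IgG (0.54, adjusted p = 0.0336) and anti-*Vegf* (0.53, adjusted p = 0.044). The potassium channel *Kcnk6* rose in all 3 groups (1.12, 1.06 and 1.02), while *Kcnk1* was lower with dexamethasone than with IgG (-0.58) and anti-*Vegf* (-0.55). *Clca2*, a regulator of chloride conductance, rose by 1.36, 1.40 and 1.26, and *Cftr* was dim and not called. The list medians were 0.25, 0.27 and 0.11 relative to naïve corneas.

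Of 15 measured regulators of the Na,K-ATPase and of sodium-proton exchange, *Fxyd5* (1.14, 1.00 and 1.13) and the dim *Fxyd2* (0.82, 0.73 and 0.81) rose in all 3 groups. *Fxyd4* fell with anti-*Vegf* (-0.70) and dexamethasone (-1.02). Of 12 measured kinases and ligases, *Sgk1*, a kinase induced by glucocorticoids that raises sodium transport, was called in each comparison of the dexamethasone group. It was higher by 0.63 than in naïve corneas (adjusted p = 0.0024), by 0.61 than with IgG (adjusted p = 0.0086) and by 0.75 than with anti-*Vegf* (adjusted p = 0.0041). *Sgk3* fell with IgG (-0.61), and the 10 others were not called. Of 13 calcium and proton pumps, *Atp2a2*, which fills calcium stores, rose in all groups (0.79, 0.89 and 1.05), *Atp2a3* fell with both antibodies (-0.71 and -0.74), and the dim *Atp6v0a4* was lower with dexamethasone than with either antibody (-0.33 and -0.39).

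**Figure D5:**
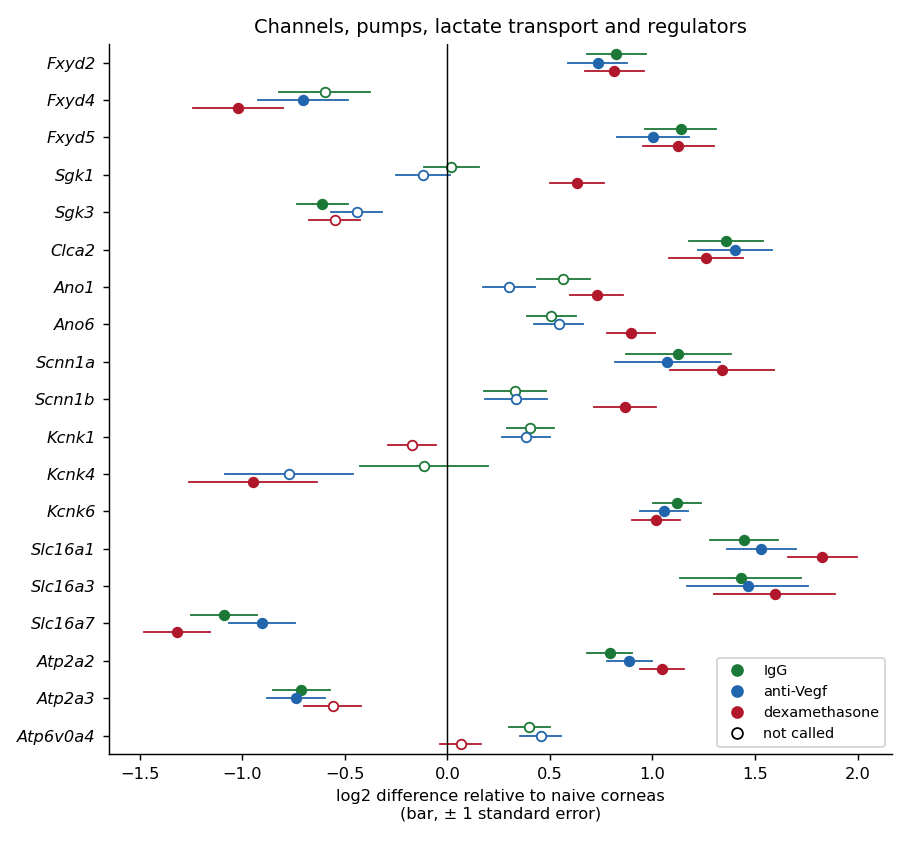
Log2 difference from naïve corneas (x axis, with a bar of 1 standard error to each side) for the 19 genes of the 5 lists called in at least 1 comparison, by treatment. Filled points were called relative to naïve corneas. *Slc16a1*, *Slc16a3*, *Clca2*, *Scnn1a* and *Kcnk6* lie above 1 in all 3 treated groups, and the red points of *Sgk1* and *Scnn1b* stand apart from the other 2 groups.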

How the data were processed

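Each of 16 arrays, 4 per group, held the RNA of 1 cornea. Signals were deposited on a log2 scale, 1 value per probe set and array. Per the labels and the paper's methods, the authors corrected background and normalized in Affymetrix Expression Console with RMA, which makes distributions alike and compresses differences of dim probe sets. The values were used as deposited, and array number limits the precision. The 57 control probe sets were left out of tests. Genes were named from GEO's platform annotation: of 31042 probe sets, 20826 carry 1 symbol and 436 several, which were not used.

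limma 3.58.1 (R 4.3.3) was fitted to all arrays with a mean for each group (12 residual degrees of freedom) and empirical Bayes moderation, and p-values were adjusted by Benjamini-Hochberg over all probe sets. Which test the authors ran is not given in the sources. Control probe sets were compared by exact permutation tests (scipy 1.17.1). Named genes were every gene called, the measured genes of a fixed list for the corneal fluid pump and the member with the highest mean signal of each family. The members and lists were chosen with earlier results of these data known, and the list of fat cell markers after the data were seen. On simulated data for dexamethasone against IgG, over 31042 probe sets, 43 of 67 changed 1.5-fold, 63 of 67 changed 2-fold and 65 of 66 changed 4-fold were recovered, with 12 false calls. The simulated noise was normal and independent between probe sets, without the split of the poly-A controls. Far fewer probe sets were changed there than were called here, so these figures check the procedure and do not give error rates for these arrays. Alternatives were trend and robust moderation, array weights, only the 2 groups compared, cyclic loess, centring on reference genes (7 of 10 found), removal of dim probe sets, the mean or any of a gene's probe sets, other fold limits and leaving out each array.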

Additional observations from a re-analysis of the deposited data

Results flagged for a closer look

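On 8 of 92 combinations of a named gene and a group, 1 array stood far from the other 3, by a gap test that flags about 1 in 20 groups by chance. *Slc4a4* in IgG replicate 1 had 7.67 against 8.87 to 9.07 on the other IgG arrays. *Slc4a11* in anti-*Vegf* replicate 2 had 10.24 against 9.85 to 9.90. *Car14* had 7.30 in naïve replicate 3 against 6.67 to 6.73, and 6.36 in dexamethasone replicate 2 against 6.60 to 6.64. *Slc26a10* had 4.14 in naïve replicate 2 against 4.54 to 4.56. *Slc26a2* had 4.80 in naïve replicate 1 against 5.03 to 5.07, and 5.36 in anti-*Vegf* replicate 3 against 4.93 to 4.97. *Slc26a6* in IgG replicate 1 had 7.39 against 7.06 to 7.09.

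The poly-A controls, which measure no corneal gene, averaged 7.08 with IgG and 6.88 with anti-*Vegf*, above the naïve arrays at 4.93 to 5.16.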

How the results depend on the processing

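Of 28 calls of a named gene in a comparison, 14 were kept under every alternative run, 14 were lost under at least 1, and 0 changed direction. The calls of *Slc4a7*, *Slc4a11*, *Slc12a5*, *Atp1b1* and *Car3* were among those kept. The counts of genes called were 6, 7 and 4 relative to naïve corneas with IgG, anti-*Vegf* and dexamethasone. Without a fold limit they were 12, 15 and 8, and centred on reference genes 10, 15 and 8. That centring moved the median of all probe sets by -0.27, -0.35 and -0.30. Dexamethasone against IgG gave 6 and against anti-*Vegf* 5. A fold limit of 1.5 left 1 in each, *Atp1b1*, and fitting only the groups compared left 3 in each. Removing dim probe sets, among them *Slc26a10* and *Slc9a9*, left 3 against anti-*Vegf*. Leaving out each array in turn gave 5 to 7 with IgG, 4 to 8 with anti-*Vegf* and 4 to 6 with dexamethasone relative to naïve corneas, 3 to 6 for dexamethasone against IgG, 2 to 6 against anti-*Vegf* and 0 to 0 for anti-*Vegf* against IgG. The cause of these changes was not tested where the construction of the alternative does not give it. No paired analysis was possible because the labels give no replicate numbers shared between groups.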
